A study of Mus musculus with 8 samples.

Results

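The nuclear genes for the mitochondrial respiratory chain and the ATP synthase were taken from the study's nascent RNA and ChIP-seq tables by the start of their symbols (Nduf, Sdh, Uqcr, Cox4 to Cox8 and Atp5). The rule found 88 of the 11364 genes listed and 16 of the 5551 consensus sites bound by KLF1-ER or KLF1-E339K-ER, namely those whose closest transcription start site (TSS) belongs to such a gene. The 16 sites lay at 10 of the 88 genes. The cells were K1, an immortalised erythroid line from Klf1-/- mouse fetal liver with no transgene, and K1-E339K-ER, K1 cells infected with a retrovirus that encodes mouse KLF1 with the E339K change fused to the estrogen receptor. All groups thus lacked endogenous KLF1. For 4sU-RNA, which captures newly made transcripts, 3 K1 and 3 K1-E339K-ER libraries (clones 1B, 2A and 2B) were labeled with 500 µM 4-thiouridine for 30 minutes according to the labels, whereas the study's methods give a longer labeling. All were given 200 nM 4-hydroxytamoxifen (4-OHT), on which the receptor fusion enters the nucleus, except 1 K1 library that is labelled as ethanol vehicle. For ChIP, 1 library from 3 pooled replicates and 1 input library were made from clone 2A after 3 h of 200 nM 4-OHT, with an antibody to the estrogen receptor. The wild type values (K1-ER cells and KLF1-ER ChIP) came from the authors' earlier libraries, which are not among these samples. No library of uninduced K1-E339K-ER cells and no ChIP from K1 cells was analysed here.

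The respiratory chain passes electrons from NADH and succinate to oxygen through complexes I to IV of the inner mitochondrial membrane, and complex V, the ATP synthase, uses the resulting proton gradient to make ATP. Most subunits are encoded in the nucleus and imported, while a core set is made inside the organelle. Erythroid precursors need active mitochondria because heme synthesis begins and ends there, and reticulocytes clear the organelles as they become red cells. KLF1 is an erythroid zinc finger factor that reads a G-rich motif of 9 bases, and the E339K change lies in the zinc finger that contacts the middle of that motif.

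Beside the results of the authors' own comparisons, which were not used here, the deposited tables hold 1 value per gene over all RNA libraries of the fit and 1 value per site for each protein. The per-gene value is the mean log2 CPM, that is, read counts scaled to the size of each library, and cannot be divided into K1, K1-ER and K1-E339K-ER. From these values no spread between libraries and no test can be computed. The effect of either protein on RNA was not analysed here, and the levels below describe the cells of the study together. The depth of the libraries is unknown. The line carried the RNA of erythroid cells. All 12 erythroid markers were listed, and 11 lay above the median of all genes per kb, up to 9.79 log2 CPM for Gata1 and 9.48 for Tal1. Klf1 itself was listed at 6.84, a mean that includes lines with a Klf1 transgene and so checks no genotype. No hepatocyte marker of 3 was listed, and the macrophage and neutrophil markers that were listed (2 of 3 in each case) lay below the median of all genes, between 0.24 and 3.69 log2 CPM. Of 4 megakaryocyte markers, Itga2b was listed, at 5.30.

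The sequences at the bound members are shown first, so that the letters at position 5, where the motifs of the 2 proteins differ, can be set beside the values of each site. The motifs searched were the study's wild type motif with a pyrimidine at position 5 (NGGGCGGGG, NGGGCGTGG, NGGGTGGGG or NGGGTGTGG) and its mutant motif with a purine there (NGGGAGGGG, NGGGAGTGG, NGGGGGGGG or NGGGGGTGG), on both strands and with overlaps counted. Coordinates are of mm9 (NCBIM37), each sequence reads 5′ to 3′ on the strand named, and capitals mark every match on that strand. The following pair lay within 1 kb of a TSS and holds the pyrimidine motif. The Ndufb4 window (chr16:37654522-37654622, plus strand) holds the TSS of this complex I gene near its left end, and the Atp5d window (chr10:79605410-79605510, minus strand) lies in an Atp5d intron.
Ndufb4: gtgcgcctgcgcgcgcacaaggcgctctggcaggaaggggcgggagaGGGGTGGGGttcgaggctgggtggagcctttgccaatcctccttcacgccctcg
Atp5d: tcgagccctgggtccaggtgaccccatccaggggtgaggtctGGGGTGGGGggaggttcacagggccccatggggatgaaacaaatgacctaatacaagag

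Windows with the purine motif were chosen after their values were seen, to show the letters at sites where KLF1-E339K-ER was about as high as KLF1-ER or higher. They lie in an intron of Ndufa9 (chr6:126779122-126779222, plus strand), in intergenic DNA upstream of Atp5o (chr16:91971541-91971641, plus strand) and in intergenic DNA upstream of Ndufa4l2 (chr10:126950843-126950943, minus strand). The Ndufa9 run of G also holds 1 pyrimidine match at its end. The site at the Ndufa4l2 TSS also holds the purine motif, but its window is not shown. There KLF1-ER was higher, at 5.20 against 2.25, so the purine windows shown leave out a site that went the other way.
Ndufa9: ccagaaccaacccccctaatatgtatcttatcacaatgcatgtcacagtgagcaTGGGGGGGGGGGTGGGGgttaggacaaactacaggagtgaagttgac
Atp5o: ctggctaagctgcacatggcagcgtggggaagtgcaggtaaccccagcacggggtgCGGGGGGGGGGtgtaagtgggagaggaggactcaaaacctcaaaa
Ndufa4l2: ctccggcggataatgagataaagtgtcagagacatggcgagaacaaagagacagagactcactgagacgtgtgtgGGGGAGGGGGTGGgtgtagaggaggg

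At 3 further sites with the purine motif the window lies in the untranslated region of an mRNA, so only the match nearest the midpoint is shown with 10 bases to each side. They are the site with the highest KLF1-E339K-ER concentration of the 16, assigned to Cox6b2 (chr7:4698799-4698827, plus strand, in Suv420h2), a site assigned to Atp5o (chr16:91916111-91916139, minus strand, in Itsn1) and a site in Ndufa4l2 (chr10:126953738-126953766, plus strand).
Cox6b2: gccaggcctcAGGGGGTGGaattgacttg
Atp5o: acaggggaggAGGGGGTGGcatcttagga
Ndufa4l2: gtcccacgtgGGGGAGGGGactcgactgc

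The respiratory chain genes had high nascent RNA levels for their length. The level used to compare genes is the mean log2 CPM minus log2 of the gene length in kb, because the lengths in the table are those of whole genes with introns (within 10% of the annotated span for 76 of 84 members found) and 4sU-RNA covers introns. The 88 members had a median of 2.44 log2 CPM per kb (quartiles 1.40 and 3.33), against 0.82 (quartiles -0.87 and 2.26) over all 11364 genes. Of them, 71 (80.7%) lay above the median of all genes and 50 (56.8%) above the upper quartile, while 5 lay below the lower quartile. The members also resembled each other more than genes at large, with an SD of 1.68 against 2.66 on the log2 scale. Their range ran from -3.29 for Ndufa4l2 to 5.31 for Atp5g3.

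This position depended on the division by length. Members were short, with a median of 7211.5 bp against 20990 bp over all genes, and short genes had higher levels per kb whatever they encode. Without the division by length the members lay at the middle of all genes, with a median of 5.24 log2 CPM against 5.27 and 43 of 88 above. Between these scales stands the comparison with genes of like length, in 5 classes, where 61 of 88 members (69.3%) lay above the median of their class. In the class from 5000 to 10000 bp, which holds the most members, 25 of 32 lay above it, with a median of 5.61 log2 CPM against 4.67 over the 1587 genes of the class. Above 20000 bp the members did not stand higher in log2 CPM, since 6 of 14 lay above the class median and their own median was 5.53 against 5.90. Those 14 include Ndufs4 and Ndufaf2, both over 100 kb long. Lengths in that class are not alike, as all genes reach 2256181 bp and members 106037 bp. Per kb its medians were 0.31 for members and 0.08 for all genes. Below 2500 bp members were higher in log2 CPM (3.67 against 2.75) but lower per kb (3.09 against 3.36).

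**Figure D1:**
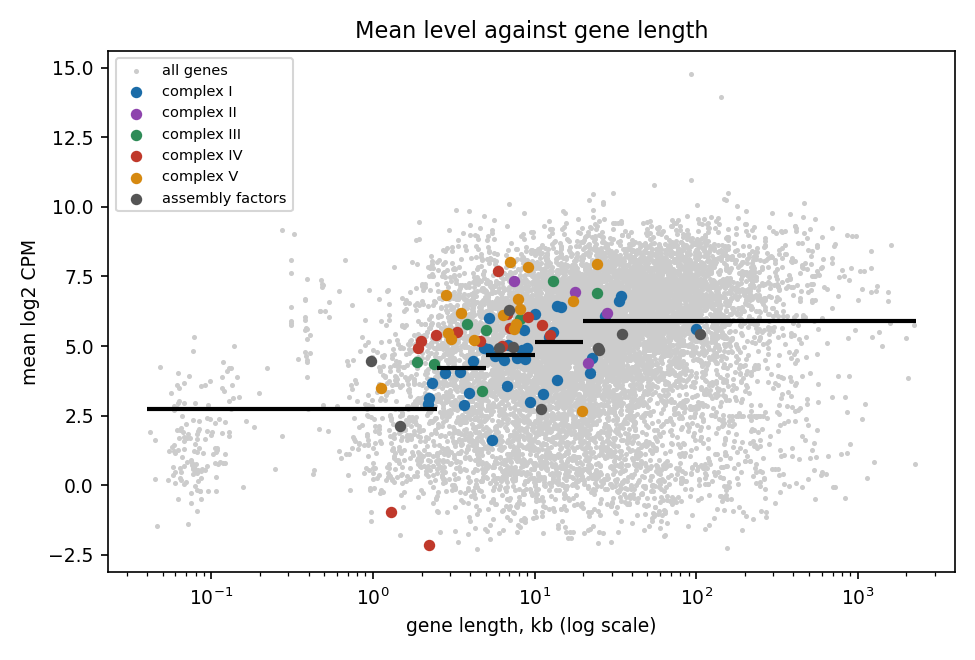
Mean log2 CPM (vertical axis) of each gene against its length in kb (horizontal axis, log scale). Grey points are all 11364 genes, coloured points the 88 members by complex, and black bars the median of all genes in each of 5 length classes; 61 of the 88 members lie above the bar of their class, and Ndufa4l2 and Cox6b2 are the members below 0.

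The order of the complexes depended on the scale. Per kb, complex V stood highest, with a median of 3.39 log2 CPM per kb over 16 genes, followed by complex III with 3.18 over 8 genes and complex IV with 2.91 over 14. Complex II had 2.07 over 4 genes and complex I 1.79 over 36. The 10 assembly factors within the rule had 0.95, close to the 0.82 of all genes. Without the division by length complex II came first, with a median of 6.56 log2 CPM, before complex V with 6.17, complex III with 5.70, complex IV with 5.39 and complex I with 4.59. On that scale the assembly factors had 4.93 and all genes 5.27. Within each complex the genes spread by an SD of 0.88 (complex III) to 2.26 (complex IV) per kb, so neighbours in that order overlap gene by gene, and no test was run, since genes are not replicates.

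**Figure D2:**
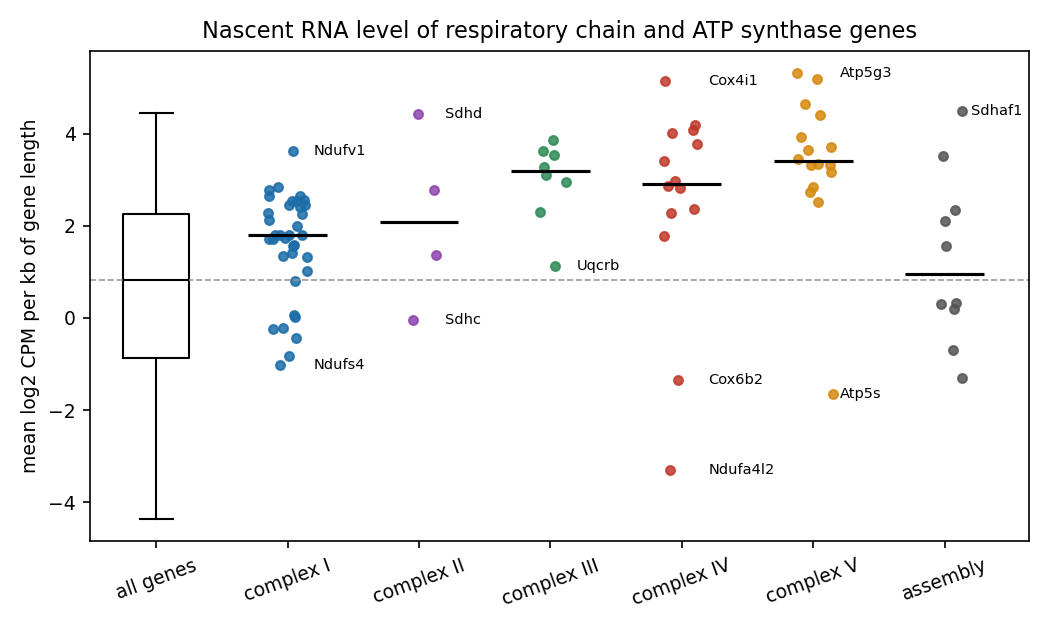
Level per kb (mean log2 CPM minus log2 of gene length in kb) of each member by complex, with the median of each complex as a black bar. The box gives the median and quartiles of all 11364 genes, its whiskers the 5th and 95th percentiles, and the dashed line their median of 0.82; 15 of 16 complex V genes and 8 of 8 complex III genes lie above that line.

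In the ATP synthase the F1 head stood out. F1 makes the ATP, and its 5 genes had a median of 4.39 log2 CPM per kb, all of them above the upper quartile of all genes. Atp5b, which encodes the catalytic beta subunit, was listed at 5.19, with the highest log2 CPM of the members (8.01). Atp5a1, for the alpha subunit that alternates with beta in the ring, followed at 4.64. Atp5d, for the delta subunit of the central stalk, had 4.39. Atp5e and Atp5c1, for the epsilon and gamma subunits of the same stalk, had 3.65 and 3.32. The F1 genes were thus not equal in level, with a range of 1.86 per kb on the log2 scale, and their order depended on the division by length. Before it, Atp5c1, which is 24479 bp long, had 7.94 log2 CPM, above Atp5a1 with 7.83, while Atp5e had 5.2.

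The 10 genes of the membrane part Fo and the peripheral stalk had a median of 3.32 log2 CPM per kb with an SD of 0.79, and all 10 lay above the upper quartile of all genes. The c ring, which turns as protons pass, is built from 1 mature protein that 3 genes encode. Atp5g3 was the highest of these, and of all members, at 5.31, against 3.92 for Atp5g1 and 3.31 for Atp5g2, a 2.62-fold and a 4.00-fold difference per kb. Atp5g2 had the higher log2 CPM of the latter pair before the division by length, 6.34 against 5.46. The rest of this group lay between 2.51 for Atp5f1 (subunit b of the peripheral stalk) and 3.71 for Atp5j2 (subunit f). Atp5o, which encodes the protein that joins the peripheral stalk to F1, had 3.45. Atp5s, a factor associated with the enzyme but not a core part of it, was the member of complex V below the median of all genes, at -1.65.

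Complex III, which moves electrons from ubiquinol to cytochrome c, had all 8 of its genes above the median of all genes. Uqcr11, a small subunit, was highest at 3.87 log2 CPM per kb. Uqcrc1, a core protein, followed at 3.62, while its partner Uqcrc2 had 2.29. Uqcrfs1, the Rieske iron-sulfur protein, was listed at 3.26. Uqcr10 had 3.09 and the hinge protein gene Uqcrh 2.94. The lowest row, named Uqcrb at 1.13, is of uncertain identity. It shares the Entrez identifier 22272 with Uqcrq (3.53) in the table, but its length of 4730 bp is near that of Uqcrb on another chromosome.

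Complex IV, cytochrome c oxidase, hands the electrons to oxygen. Cox4i1, a regulatory subunit gene, led it at 5.13 log2 CPM per kb. Cox7c, Cox8a and Cox5b followed between 4.02 and 4.18, and Cox6a1 and Cox7b stood at 3.76 and 3.41. All of these encode small subunits that surround the catalytic core. Cox6c, Cox5a and Cox7a2l were the lowest of the genes in common use, at 2.37, 2.28 and 1.77. Cox5a was 1.74 below Cox5b per kb, although its log2 CPM was higher (5.77 against 4.95). Cox7a2l, which encodes a factor that joins complexes III and IV, was 1.20 below its paralog Cox7a2.

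Wide gaps lay between isoforms. Cox6b2, whose product is known from testis, had -1.35 log2 CPM per kb, against 2.86 for the common isoform gene Cox6b1. Ndufa4l2, known as a hypoxia-induced relative of the complex IV subunit gene Ndufa4, had -3.29, against 2.81 for Ndufa4. No fold is given for either pair, because the log2 CPM of Cox6b2 and of Ndufa4l2 was among the lowest of all genes listed. In log2 CPM, Cox6b2 (-0.98) and Ndufa4l2 (-2.14) were the lowest of the 88 members. Without Cox6b2 and Ndufa4l2 the SD of complex IV fell to 0.97 and its median rose to 3.19. The isoform genes Cox4i2, Cox6a2, Cox7a1 and Cox8b were not among the genes listed.

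Complex II, succinate dehydrogenase, links the citric acid cycle to the chain. Sdhd, for a membrane anchor that helps to bind ubiquinone, had 4.43 log2 CPM per kb. Sdhc, for the other anchor of the same complex, had -0.05, 22.2-fold less per kb. Part of this gap comes from the division by length, as Sdhc is 21447 bp long and Sdhd 7510 bp. Before it, Sdhc had 4.38 log2 CPM and Sdhd 7.33. Sdhb, the iron-sulfur subunit, lay between Sdhd and Sdhc at 2.78 per kb. Sdha, the flavoprotein that oxidises succinate, had 1.36. The 4 genes thus spanned 4.47 on the log2 scale, which is almost as wide as the 4.66 spanned by the 36 genes of complex I.

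Complex I takes electrons from NADH. Without the division by length 12 of its 36 genes lay above the median of all genes, and per kb 28 did. Per kb the 7 core subunit genes, which carry the flavin and the iron-sulfur clusters, lay above the median of all genes in 6 cases. The 29 accessory subunit genes had a median of 1.79 log2 CPM per kb, with 22 above. Ndufv1, for the subunit that binds NADH, was highest at 3.62. Ndufs3 and Ndufs7, for subunits of the arm that leads to ubiquinone, had 2.83 and 2.78. Ndufv2, which encodes the neighbour of Ndufv1 in the NADH module, had 0.05, a gap per kb wider than the spread of the complex (SD 1.14). Part of this gap comes from the division by length, as Ndufv2 is 22697 bp long and Ndufv1 5221 bp. Before it, Ndufv2 had 4.56 log2 CPM and Ndufv1 6.01, where the SD of the complex was 1.23. Ndufs1 and Ndufs8, both core genes, had 1.56 and 1.33 per kb.

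Among the accessory subunit genes Ndufb7 (2.65 log2 CPM per kb), Ndufab1 (2.64), which encodes the mitochondrial acyl carrier protein, and Ndufa3 (2.56) were highest. Ndufs4, Ndufs5 and Ndufa12 were lowest, at -1.03, -0.82 and -0.43. Ndufs4 is the longest subunit gene of the 88, at 100300 bp, and its log2 CPM of 5.62 was above the median of all genes before the division by length. Ndufs5, at 5477 bp, was low on either scale, with 1.63 log2 CPM. Also below the median of all genes were Ndufb3 (-0.24), Ndufv3 (-0.22), Ndufa7 (0.02) and Ndufb4 (0.80). The other 19 accessory genes lay between 1.02 for Ndufa1 and 2.54 for Ndufb8.

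The assembly factors, which are needed to build complexes but are not part of them, were divided. Sdhaf1, an assembly factor of complex II and the shortest member at 967 bp, had 4.50 log2 CPM per kb. Ndufaf4, a complex I factor, had 3.50. Atp5sl, now called Dmac2 and also a complex I factor despite its name, had 2.34. Ndufaf1 and Ndufaf3 had 2.10 and 1.57. The remaining 5 lay below the median of all genes, from 0.32 for Ndufaf5 through Sdhaf2 (0.31), Ndufaf6 (0.19) and Ndufaf7 (-0.71) to -1.31 for Ndufaf2.

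Pathway genes that the symbol rule leaves out were listed in full apart from Ppargc1a. Cyc1, the heme subunit of complex III, had 5.31 log2 CPM per kb, as high as the highest member, and Cycs, which encodes cytochrome c, had 2.65. Of 32 other assembly and regulatory factors, 22 lay above the median of all genes. The highest was Atpif1 at 4.45, an inhibitor of the ATP synthase with a known part in heme synthesis. Of 12 regulators listed, 10 lay above that median, led by Pprc1 at 4.73, a coactivator of nuclear genes for mitochondria.

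Binding sites were sparse at these genes. Of the 88 members, 6 (6.82%) were the closest TSS of a consensus site within 10 kb, against 21.3% of all genes listed. Those members were Cox6b2, Ndufa4l2, Uqcrfs1, Atp5a1, Ndufb4 and Atp5d, with 9 sites together, and 82 members had none. Within 1 kb there were 3 members, against 15.8% of all genes, and within 50 kb there were 10, against 25.4%. Counting any annotated TSS of a gene within 10 kb of a site, even if another gene lay closer, gave 12 of 85 members found in the annotation (14.1%). The share of all genes found was 29.6%. This count includes annotated starts inside a gene, as at Ndufs7 and Atp5b. By contrast, 11 of the 12 erythroid markers had a site within 10 kb under the first count. Of the other pathway genes, neither Cycs nor Cyc1, 3 of 32 assembly factors (Cox14, Lyrm7 and Tmem126b) and 3 of 12 regulators had 1. These shares are descriptions of the listed genes, and no test of their difference was run.

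**Figure D3:**
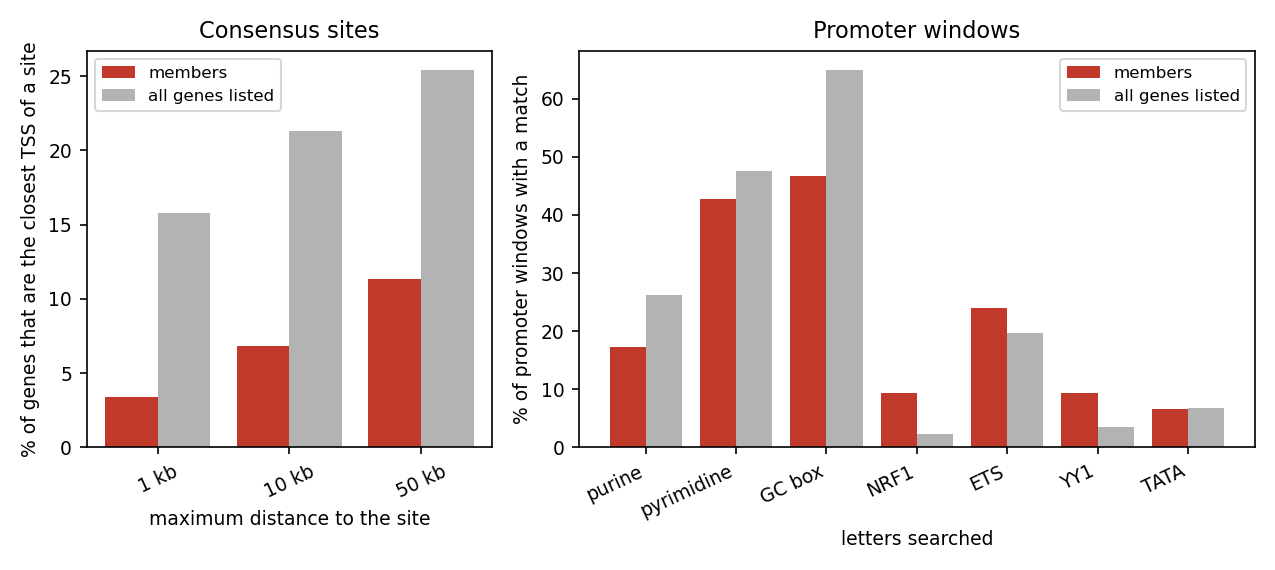
Left, percentage of the 88 members (red) and of all 11364 genes (grey) that are the closest TSS of a consensus site, by maximum distance; members stand at 6.82% and all genes at 21.3% within 10 kb. Right, percentage of promoter windows with at least 1 match to each set of letters, for 75 members and 8937 genes; members stand lower for the GC box and higher for NRF1 and YY1.

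The sites that were present were divided between the proteins much as sites at large. Concentration is the authors' log2 mean normalised read count for each protein, and a 2-fold difference (1 on the log2 scale) was used to sort sites. KLF1-E339K-ER was at least 2-fold higher at 10 of the 16 sites (62.5%), against 61.5% of all 5551. KLF1-ER was at least 2-fold higher at 5 (31.3%), against 28.7% of all, and 1 site was in neither class. Both shares are near those of all sites. The median concentration at the 16 sites was 2.40 for KLF1-ER and 4.83 for KLF1-E339K-ER, against 2.82 and 4.86 over all sites. At 4 of the 16 KLF1-ER stood at -0.09, the lowest value listed for it, so the difference there is a lower bound. Each concentration is a single deposited value without an error.

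**Figure D4:**
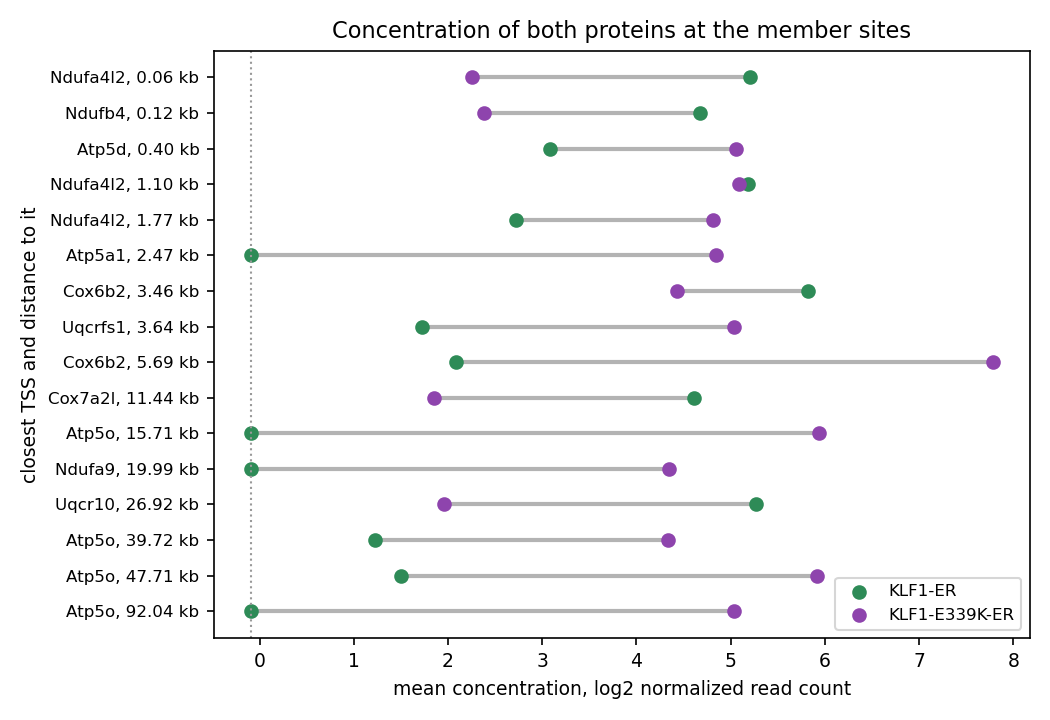
Mean concentration (log2 normalised read count) of KLF1-ER (green) and KLF1-E339K-ER (purple) at each of the 16 sites, ordered by distance to the closest TSS, which is given in kb beside the gene. The dotted line is the lowest value listed for KLF1-ER, -0.09; the purple point lies to the right at least 2-fold at 10 sites and the green point at 5.

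Sites within 1 kb of a member's TSS were found at Ndufa4l2, Ndufb4 and Atp5d. The Ndufa4l2 site (chr10:126951777-126952088) was centred 62.5 bp upstream of the TSS, with 5.20 for KLF1-ER and 2.25 for KLF1-E339K-ER. The Ndufb4 site (chr16:37654421-37654723) was centred 33 bp upstream of the annotated TSS, with 4.67 for KLF1-ER and 2.38 for KLF1-E339K-ER. At both the wild type was thus higher, by 2.95 and 2.29 on the log2 scale, and the Ndufb4 site holds the pyrimidine motif shown above. The Atp5d site (chr10:79605301-79605620) lay 345.5 bp downstream of the TSS in an intron, with 3.08 for KLF1-ER and 5.06 for KLF1-E339K-ER. It went the other way, by 1.98, although its motif too has a pyrimidine.

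Ndufa4l2, the member with the lowest RNA level, was the closest TSS of 3 sites within 10 kb, the most of any member by the deposited assignment. Beside the one at its TSS, a site 1101.5 bp upstream (chr10:126950610-126951177) had 5.18 for KLF1-ER and 5.09 for KLF1-E339K-ER and was the single member site in neither class. The third, 1769 bp downstream in the gene's untranslated region (chr10:126953535-126953993), had 2.72 for KLF1-ER and 4.81 for KLF1-E339K-ER. All 3 hold the purine motif, and none the pyrimidine motif, so the protein that was higher changed between neighbouring sites with the same kind of match.

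Cox6b2, the member with the next lowest log2 CPM before the division by length, was the closest TSS of a site for each protein. The site 3462.5 bp away (chr7:4700839-4701244) had 5.82 for KLF1-ER and 4.43 for KLF1-E339K-ER, and holds neither motif. The site 5694 bp away (chr7:4698555-4699065) had 2.08 for KLF1-ER and 7.78 for KLF1-E339K-ER, a difference of 5.70. In the GENCODE M1 annotation, however, a TSS of Suv420h2, a histone methyltransferase gene, is closer to both, at 3631.5 and 1400 bp, where Cox6b2 is at 3654.5 and 5886 bp. Ndufa4l2 and Cox6b2 together held 5 of the 16 sites.

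For Uqcrfs1 and Atp5a1 the site lay upstream in intergenic DNA. The Uqcrfs1 site (chr13:30640664-30640979) was 3590.5 bp from the annotated TSS, with 1.72 for KLF1-ER and 5.03 for KLF1-E339K-ER. The Atp5a1 site (chr18:78009876-78010204) was 2428 bp from it, with -0.09 for KLF1-ER and 4.84 for KLF1-E339K-ER, a difference of at least 4.93. Both favoured KLF1-E339K-ER, and neither holds a match to either motif.

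The other 7 sites were more than 10 kb from the TSS to which they were assigned. A site 11442.5 bp upstream of Cox7a2l (chr17:83924960-83925271) had 4.61 for KLF1-ER and 1.85 for KLF1-E339K-ER. A site assigned to Uqcr10, in an intron of Ascc2 (chr11:4577267-4577586), had 5.27 for KLF1-ER and 1.96 for KLF1-E339K-ER. These are the remaining sites at which the wild type was at least 2-fold higher, and neither holds a motif. In an intron of Ndufa9 (chr6:126779006-126779338), 19990 bp downstream of its TSS, KLF1-ER was listed at -0.09 and KLF1-E339K-ER at 4.35. The run of G shown above lies in this window.

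Atp5o was assigned 4 sites, all higher for KLF1-E339K-ER. Upstream of it, in intergenic DNA, a site at 39659.5 bp (chr16:91971431-91971752) had 1.23 for KLF1-ER and 4.33 for KLF1-E339K-ER. A site at 47654 bp on the same side (chr16:91979281-91979891) had 1.50 and 5.92 in that order. The 2 others lie in Itsn1, an endocytosis gene beside Atp5o, whose annotated TSS are closer. In its untranslated region (chr16:91916001-91916320, 3956.5 bp from an Itsn1 TSS) the concentrations were -0.09 and 5.94. In its intron (chr16:91839679-91839987, 111 bp from another Itsn1 TSS) they were -0.09 and 5.03. For 12 of the 16 sites the annotation names the same closest protein-coding TSS as the deposited table, and the exceptions are those of Cox6b2 and these in Itsn1.

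Within 50 bp of the midpoint, 7 of the 16 sites (43.8%) held the purine motif, against 35.5% of all 5551, and 3 (18.8%) the pyrimidine motif, against 35.3%. Neither was present at 7 of the 16 sites, and at 2340 of all 5551. Over all sites the letters differed with the protein: the purine motif was in 45.8% of sites higher for KLF1-E339K-ER and in 16.0% of those higher for KLF1-ER, and the pyrimidine motif in 22.8% and 60.7%. At the member sites the purine motif was in 5 of the 10 sites higher for KLF1-E339K-ER and in 1 of the 5 higher for KLF1-ER, the pyrimidine motif in 2 and 1. With these numbers no pattern can be read from the 16 sites. A match describes letters and not a bound position.

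The promoters of the members had features that the symbol rule did not use. These descriptions were chosen after the levels were known. Of 85 members in the annotation, 29 (34.1%) had the TSS of another protein-coding gene on the opposite strand within 1 kb in a head-to-head arrangement, against 17.3% of 10169 genes. Ndufs1 and the translation factor gene Eef1b2 start 3 bp apart, as do Ndufb11 and Rbm10. Sdhd starts 52 bp from Timm8b, which encodes a mitochondrial import chaperone. Atp5j starts 93 bp from Gabpa, a subunit gene of the ETS factor that is known to act on respiratory genes.

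In RefSeq promoters of GRCm38.p6 (250 bases before to 50 after the start), 75 members and 8937 genes of the table were matched by Entrez identifier. The NRF1 letters (GCGCA directly followed by TGCGC) were in 7 members (9.33%), against 2.27% of all, namely Atp5g2, Atp5k, Cox6a1, Ndufa11, Ndufaf4, Ndufaf5 and Uqcrc1. The YY1 letters AAGATGGCG were in 7 (9.33%), against 3.59%, namely Atp5j2, Atp5sl, Ndufa9, Ndufc1, Ndufs4, Ndufs6 and Ndufs7. Both factors are known regulators of nuclear genes for mitochondria. The ETS letters CCGGAAG were in 18 (24.0%), against 19.7%, and TATAAA in 5 (6.67%), against 6.81%.

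The letters that KLF proteins read were searched in the same promoters. The GC box GGGCGG, which the motif NGGGCGGGG contains, was in 35 of 75 members (46.7%), against 65.0% of all genes. The pyrimidine motif was in 32 (42.7%), near the 47.6% of all genes, and the purine motif in 13 (17.3%), against 26.2%. All were searched on both strands, and the shares were not tested. Among the 32 with the pyrimidine motif were Atp5d, Cox6b2, Ndufb4 and Uqcrfs1, which had a site within 10 kb; the other 28 had none.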

How the data were processed

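Ion Proton reads had been aligned by the authors to mm9 (4sU-RNA with TopHat2 2.0.10 and TMAP, ChIP with TMAP) and cleared of poorly mapped (RNA) or duplicate and multi-mapped (ChIP) reads. They fitted limma-voom to genes and DiffBind to sites called with MACS2 and GEM. The versions of limma and DiffBind and the counting tool are not given in the sources used here. Used here were the log2 values that the authors deposited: the mean log2 CPM of each gene over all libraries, and the mean log2 concentration of each site for either protein. The tables' other columns hold the authors' comparisons (log2 fold changes, t, p-values, FDR) and were not used, so no test was run.

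Members were chosen by symbol, and lists, complexes and alternatives with earlier results of these data known. Named by rule were members closest to a site, the 3 highest and 3 lowest per kb of each complex, and isoform pairs; other names, and the length classes, head-to-head and promoter counts, were chosen after values were seen. Near-identical copies and overlapping genes may share reads. Gene positions came from GENCODE M1. Python 3.11.15, pandas 2.3.3 and numpy 2.4.6 were used. The motif search, the percentile and the closest-TSS lookup were tested on simulated data, and the other steps were not. The lookup was tested only at positions on a TSS, so its distances and directions were not tested. The motif search was tested on single matches in sequence of A and T, not on overlapping matches in runs of G. The value of 1 member is not reported here. Depth is unknown, so precision cannot be given.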

Additional observations from a re-analysis of the deposited data

How the results depend on the processing

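The number of members above the median of all genes fell from 71 to 43 without division by length. Members with a site within 10 kb numbered 6, with 3 at 1 kb, 10 at 50 kb and, as an alternative added after seeing the data, 12 by any annotated TSS. Among sites with a concentration of at least 5, those at least 2-fold higher for KLF1-E339K-ER fell from 10 to 6 and for KLF1-ER from 5 to 3. Purine matches fell from 7 to 4 sites within 25 bp, and pyrimidine matches rose from 3 to 5 within 100 bp. Other alternatives stayed within 1.5 times. No paired analysis was possible because the columns carry no replicate and no result comes from a test. No library could be left out, since each value is already a mean.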

Other observations

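Sites assigned to neighbouring genes lay near several members. Within 10 kb of an annotated TSS of a member there were 24 sites at 12 genes, of which 15 had been assigned to another gene. At Atp5d there were 7, and 6 of them were assigned to Midn, among them 1 with 7.77 for KLF1-ER and 8.19 for KLF1-E339K-ER at 5915 bp from the Atp5d TSS. At Atp5b, the member with the highest log2 CPM, 3 sites assigned to Baz2a lay 2516 to 7930.5 bp from an annotated TSS inside the gene. Atp5b spans 127520329 to 127527447 of chromosome 10 on the plus strand. All 3 sites lie past its end, the first from 127528461, and not at its 5′ start. A site assigned to Gamt (chr10:79723691-79724345) lay 7958 bp from an annotated TSS inside Ndufs7, with 7.01 for KLF1-ER and 3.58 for KLF1-E339K-ER. It lies past the end of that gene, which spans 79711866 to 79719539 on the plus strand, and is more than 10 kb from the gene's first base.

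Of 12 regulators of the pathway listed, 3 had a site within 10 kb, a share near the 21.3% of all genes listed. They were the coactivator genes Ppargc1b and Pprc1 and the receptor gene Esrra. Ppargc1b had 2 (chr18:61559150-61559459 and chr18:61558796-61559106), with KLF1-E339K-ER at 5.83 and 4.72 and KLF1-ER at -0.09 at both. Esrra, for a nuclear receptor that acts with it, had 1.23 for KLF1-ER and 5.13 for KLF1-E339K-ER. Pprc1 went the other way, with 5.43 for KLF1-ER and -0.38 for KLF1-E339K-ER, the latter being the lowest value listed for it.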
